A study of Homo sapiens with 6 samples.

Results

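Antigen processing and presentation genes are the genes whose products cut, carry, load and display peptides on HLA molecules, together with ligands that cells show to natural killer cells and T cells. They were taken here by name: every listed gene whose symbol starts with HLA-, and 26 further named genes. The authors' tables held 26 such genes among 7681 listed genes. RNA sequencing was done on untreated HCT116 cells, a human colorectal carcinoma line, grown for 48 hours, in 3 cultures labelled Rab27B KO (RAB27B deleted by CRISPR/Cas9) and 3 cultures labelled wild type. The sources used here do not say whether the edited cells are 1 clone or a pool.

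The authors compared the genotypes themselves and deposited 2 tables, 1 for rises and 1 for falls in the cultures labelled Rab27B KO relative to wild type. Every entry pairs a log2 fold change with a q-value, and all q-values are below 0.05. Values per sample were not analysed here, and depth, the spread between cultures, standard errors and RNA levels are therefore unknown. A gene in neither table either did not pass the authors' threshold or was not in their comparison. The targeted gene went against its label: RAB27B RNA stood 36.7-fold higher in cultures labelled Rab27B KO per the authors' deposited table, where its q-value is printed as 0. All directions below are therefore those of the samples so labelled. The tables do not tell whether the labels or the direction of the comparison were exchanged. Whether RNA is still made from the edited gene was not tested either. If the labels or the direction were exchanged, every rise below would be a fall in the edited cells and every fall a rise. In bulk RNA, a change in the number of cells of a kind and a change in RNA per cell cannot be told apart.

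Class I molecules are made of an HLA heavy chain and beta-2-microglobulin, and show peptides from inside the cell to CD8 T cells. The peptides are cut by the proteasome, pumped into the endoplasmic reticulum by the TAP transporter, and loaded there with the help of tapasin and general folding chaperones. Class II molecules show peptides from endosomes and are normally made by professional antigen-presenting cells under the master regulator CIITA. NKG2D ligands are stress-induced relatives of class I molecules that are recognised by the activating receptor NKG2D of natural killer cells.

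The promoters of class I genes carry short elements through which interferons, NF-kB and the SXY enhanceosome (which binds the X and Y boxes) are known to act. The 250 bases before the start of HLA-B, HLA-C, B2M and TAP1 are shown as examples of class I chains and of the transporter that supplies their peptides, chosen with earlier values of these data known. They come from the RefSeq promoter table of GRCh38.p14, and 23 of the 26 genes had an entry. Capitals mark the interferon regulatory factor (IRF) element (GAAA, any 2 bases, GAAA), the NF-kB consensus, the X2 box TGACG and the Y box CCAAT, each searched on both strands. Neighbouring elements that overlap appear as 1 run of capitals.
HLA-B, chr6:31357180-31357429, minus strand: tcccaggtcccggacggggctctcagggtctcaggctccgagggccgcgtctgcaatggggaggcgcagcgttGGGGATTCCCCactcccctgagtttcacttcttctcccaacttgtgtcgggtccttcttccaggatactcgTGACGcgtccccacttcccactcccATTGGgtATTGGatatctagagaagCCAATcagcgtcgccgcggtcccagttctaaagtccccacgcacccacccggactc
HLA-C, chr6:31272093-31272342, minus strand: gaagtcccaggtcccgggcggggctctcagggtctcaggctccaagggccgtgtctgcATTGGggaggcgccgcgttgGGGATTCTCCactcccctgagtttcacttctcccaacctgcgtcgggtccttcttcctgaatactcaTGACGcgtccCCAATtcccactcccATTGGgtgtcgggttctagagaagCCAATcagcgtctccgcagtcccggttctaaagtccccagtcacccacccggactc
B2M, chr15:44711267-44711516, plus strand: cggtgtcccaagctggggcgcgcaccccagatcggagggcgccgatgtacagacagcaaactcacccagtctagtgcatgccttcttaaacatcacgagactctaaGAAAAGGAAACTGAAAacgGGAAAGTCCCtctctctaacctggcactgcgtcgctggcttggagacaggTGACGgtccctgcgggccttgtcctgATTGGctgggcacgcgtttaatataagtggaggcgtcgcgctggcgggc
TAP1, chr6:32853705-32853954, minus strand: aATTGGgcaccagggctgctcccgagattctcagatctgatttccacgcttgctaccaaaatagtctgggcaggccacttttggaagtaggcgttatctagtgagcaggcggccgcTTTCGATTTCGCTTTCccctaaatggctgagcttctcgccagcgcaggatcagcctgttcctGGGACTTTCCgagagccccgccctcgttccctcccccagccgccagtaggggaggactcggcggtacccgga

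HLA-B, HLA-C and B2M each hold an NF-kB consensus, an X2 box and a Y box in these windows, and B2M also has a run of overlapping IRF elements. TAP1 has a run of IRF elements on the opposite strand, an NF-kB consensus and a Y box, and no X2 box in these letters. Counted per gene, with a match at any of its starts, 3.71% of the 27305 genes in the table held the IRF element, against 6 of the 23 genes with an entry (B2M, CD274, HLA-F, TAP1, TAP2 and TAPBP). The NF-kB consensus stood in 11.8% of all genes and in 9 of the 23. The X2 box was found in 24.9% of all genes and in 9 of the 23, and the Y box in 37.0% and in 17 of the 23. Only exact matches to the stated letters were counted, so variant forms of an element, also in the windows shown, would be missed. These matches describe the reference letters and measure no binding. TAP1 has a further start in the table, whose window is not shown.

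Of the 26 listed genes, 23 were higher and 3 lower in the cultures labelled Rab27B KO. That is a share of 88.5% higher, where 50.7% of all listed genes were higher and 49.3% lower. With exchanged labels the same values would read as 23 lower and 3 higher, against 49.3% of all listed genes higher. The median log2 fold change was 0.57 over the 26 genes and 0.12 over all listed genes. Among the genes that were higher, the median was 0.64 for these 23 and 0.41 for all 3898. A log2 change of at least 1 was listed for 6 of the 26, or 23.1%, against 6.11% of all listed genes. A log2 change of -1 or below was listed for 2 of the 26, or 7.69%, against 6.5% of all listed genes. The genes were named with earlier results of these data known, so these shares are a description and no test was made of them. The same holds for the counts by group that follow. They stand beside a background in which 37.9% of the 20056 RefSeq protein-coding genes were in either table and 50.7% of those listed were higher.

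**Figure D1:**
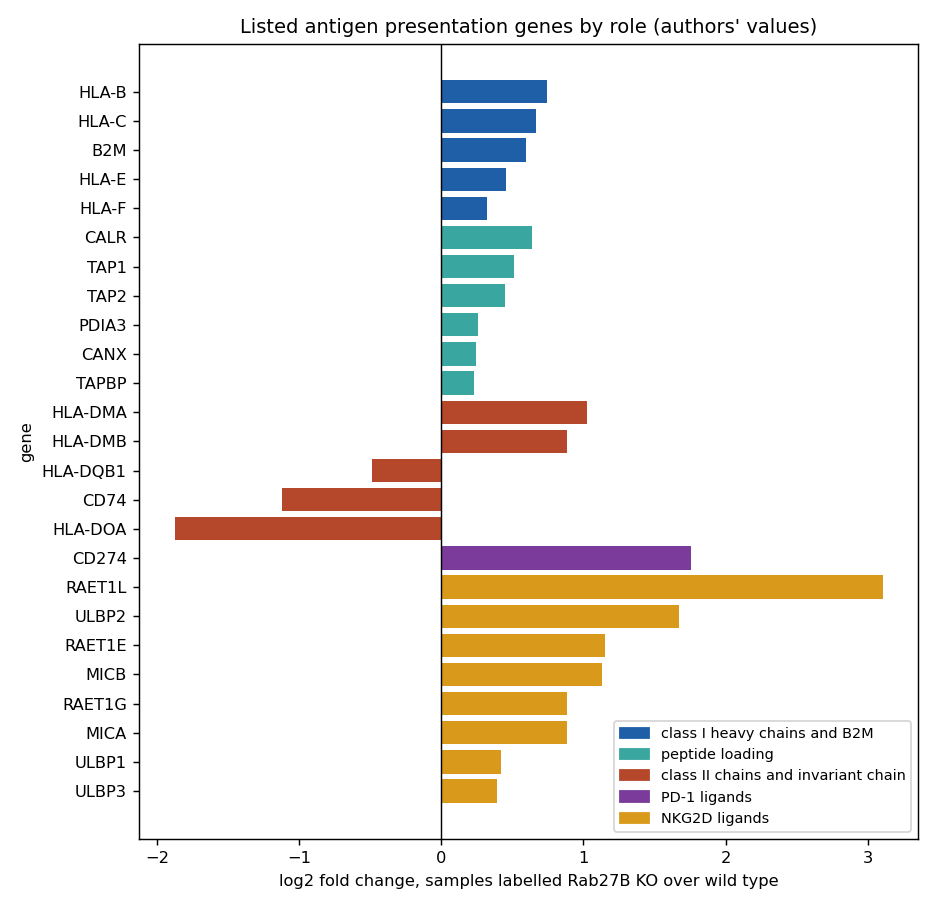
Bars give the authors' log2 fold change, samples labelled Rab27B KO over wild type, of 25 of the 26 listed genes, ordered within role. All class I, peptide loading and NKG2D ligand genes drawn lie to the right of 0, RAET1L reaches 3.11, and HLA-DOA, CD74 and HLA-DQB1 lie to the left.

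The class I chains rose by 1.25-fold to 1.67-fold per the authors' deposited table. Of 7 annotated protein-coding genes of the group, 6 were listed and all 6 were higher. HLA-B (gene ID 3106) had the largest fold change of them, 1.67-fold (log2 0.74, q = 1.17e-59), per the authors' deposited table. HLA-C (3107) was 1.59-fold higher per the authors' deposited table (log2 0.67), and its q-value of 1.64e-73 was the smallest of all 26 genes, rank 191 among the 7681 listed. B2M (567), the light chain shared by all class I molecules, was 1.51-fold higher per the authors' deposited table (log2 0.59, q = 4.52e-48). Among the non-classical heavy chains, HLA-E, which presents leader peptides to NKG2A receptors, was 1.37-fold higher per the authors' deposited table (log2 0.45, q = 2.14e-25). HLA-F had the smallest rise of the group per the authors' deposited table, 1.25-fold (log2 0.32), with q = 0.0325, the largest q-value of the 26 genes. HLA-G was in neither table. The order of these folds has no error attached to it, so neighbours in it were not shown to differ.

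B2M lies on chromosome 15 (44711517 to 44718145, GRCh38.p14), away from the HLA genes on chromosome 6. Only 19.8% of the 257 listed genes of chromosome 15 were higher. Of the 6 other listed genes starting within 500 kb of B2M, 1 was higher and 5 were lower. PDIA3 is on the same chromosome and was also higher, with 3 of its 14 listed neighbours higher and 11 lower.

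Peptide loading genes rose as well, where listed. Of 9 annotated genes, 6 were listed, all higher (37.9% of coding genes were listed and 50.7% of listed genes were higher). Their median log2 fold change of 0.35 was below the 0.41 of all higher genes. TAP1 and TAP2, which together form the peptide transporter, were 1.43-fold (log2 0.51, q = 4.73e-15) and 1.36-fold (log2 0.45, q = 9.41e-17) higher per the authors' deposited table. TAPBP (tapasin), the bridge between TAP and class I, had a log2 fold change of 0.23 per the authors' deposited table (q = 9.68e-08), the smallest rise of the 26 genes. CALR (calreticulin), a lectin chaperone of the loading complex and of glycoproteins in general, was 1.56-fold higher per the authors' deposited table (log2 0.64, q = 5.23e-70). The related lectin CANX (calnexin) and the oxidoreductase PDIA3 (ERp57) had log2 fold changes of 0.24 and 0.26 per the authors' deposited table, with q-values of 1.39e-10 and 8.77e-14. The aminopeptidase genes ERAP1 and ERAP2, which trim peptides to length, and the tapasin relative TAPBPL were in neither table. Because CALR, CANX and PDIA3 serve all glycoproteins, they were set beside other folding genes of the same compartment: of 9, 8 were listed and all 8 were higher, against the same 37.9% and 50.7%. HSPA5 (BiP), P4HB and HSP90B1 had log2 fold changes of 0.82, 0.78 and 0.48 per the authors' deposited table.

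The step before the transporter was listed in part. Of 7 immunoproteasome and proteasome activator genes, 4 were listed and all 4 were higher, where 37.9% of coding genes were listed and 50.7% of listed genes higher. PSMB9, an interferon-inducible catalytic subunit, had a log2 fold change of 1.35 per the authors' deposited table (q = 1.03e-18), and the activator subunits PSME2 and PSME1 had 0.47 and 0.34. PSMB8 and PSMB10, the remaining inducible catalytic subunits, were in neither table. PSMB9 and TAP1 are transcribed away from each other with 487 bases between their starts, so the TAP1 window shown above lies in the stretch between both genes. On either side of that stretch PSMB9 was 2.55-fold and TAP1 1.43-fold higher per the authors' deposited table. Cytosolic peptidases that process peptides outside the proteasome were split, with 4 of 8 listed, 2 higher and 2 lower. Among them TPP2 had a log2 fold change of -0.92 (q = 1.99e-33), NRDC one of 0.30 and IDE one of 0.20 per the authors' deposited table.

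The transactivators of class I and class II genes were not listed. NLRC5, the class I transactivator, was in neither table, and neither were CIITA, RFX5, RFXAP or RFXANK. Of 8 other factors of the SXY promoter module and its Polycomb repressor, 4 were listed, 1 higher and 3 lower. CREB1, which can bind the X2 box, had a log2 fold change of -0.43, NFYB, a subunit of the Y-box factor, one of -0.47, and EZH2, the Polycomb methyltransferase, one of -0.21 per the authors' deposited table. Of 16 genes of interferon reception and signalling, 8 were listed, not far from the background of 37.9%. All 8 were higher, where 50.7% of listed genes were. The receptor gene IFNGR1, the feedback inhibitor SOCS1 and the transcription factor IRF1, which is known to act on class I promoters, had log2 fold changes of 0.68, 0.79 and 0.48 per the authors' deposited table. STAT2, IRF9 and TYK2 were in neither table.

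**Figure D2:**
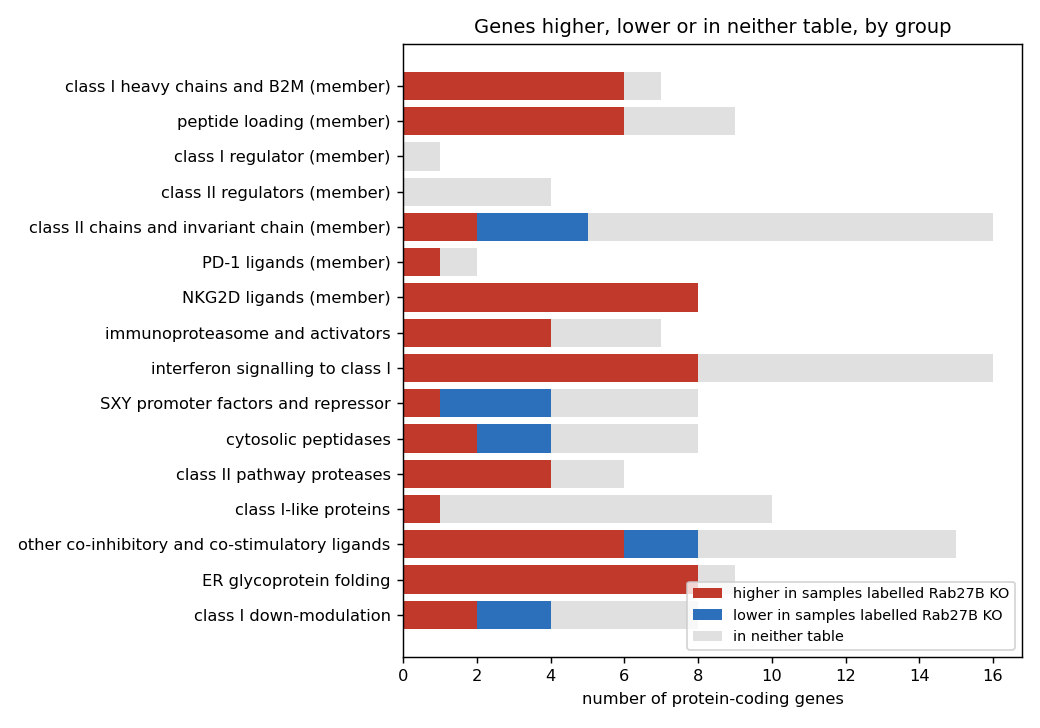
Stacked bars count the protein-coding genes of each group that were higher, lower or in neither table. All 8 NKG2D ligand genes were higher, 11 of 16 class II genes were in neither table, and none of the 5 regulators in the top rows was listed.

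Listed class II genes went in both directions. Of 16 annotated protein-coding genes, 5 were listed, 2 higher and 3 lower, close to the background of 37.9% listed and 50.7% of those higher. HLA-DMA and HLA-DMB encode the chains of HLA-DM, which catalyses peptide exchange on class II molecules. They were 2.03-fold (log2 1.02, q = 1.41e-14) and 1.84-fold (log2 0.88, q = 3.44e-04) higher per the authors' deposited table. HLA-DOA, a chain of HLA-DO, which restrains HLA-DM, was 3.67-fold lower per the authors' deposited table (log2 -1.87, q = 1.09e-07), and its partner HLA-DOB was in neither table. CD74, the invariant chain that guards the class II groove, was 2.17-fold lower per the authors' deposited table (log2 -1.12, q = 0.00431). HLA-DQB1, a peptide-presenting beta chain, was 1.40-fold lower per the authors' deposited table (log2 -0.49, q = 0.00343). The q-values of CD74 and HLA-DQB1 stand at ranks 6048 and 5936 of 7681. HLA-DRA, HLA-DRB1, HLA-DQA1, HLA-DPA1 and HLA-DPB1 were in neither table. CD74 is on chromosome 5, and all 5 of its other listed neighbours within 500 kb were lower as well.

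Of 6 endosomal proteases and reductases of the class II pathway, 4 were listed and all 4 were higher, against 37.9% listed and 50.7% higher over all genes. CTSD, CTSL and LGMN, which cut proteins in lysosomes, had log2 fold changes of 0.65, 0.73 and 0.45 per the authors' deposited table, and CTSS, the main invariant chain protease of antigen-presenting cells, was in neither table. Of 8 markers of professional antigen-presenting cells, 2 were listed, ITGAX and CD40, with log2 fold changes of 1.00 and 0.26 per the authors' deposited table. Of 8 leukocyte markers, 2 were listed, CD68 and LYZ, at 1.81 and 1.34 per the authors' deposited table, while PTPRC, CD3E and CD14 were in neither table. Of 6 fibroblast and endothelial markers, COL3A1 was higher and COL1A1 lower. Of 8 markers of colonic epithelium 6 were listed, the keratin genes KRT8, KRT18 and KRT19 higher and EPCAM, CDH1 and CDX2 lower. Their RNA levels are unknown, and their part in the class I and class II values was not tested.

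The NKG2D ligand genes rose without exception and included the largest rise of the 26 genes, that of RAET1L. All 8 annotated genes were listed and all 8 were higher, with a median log2 fold change of 1.01, against 37.9% of all coding genes listed. RAET1L (gene ID 154064), also known as ULBP6, was 8.62-fold higher per the authors' deposited table (log2 3.11, q = 4.91e-39), rank 66 by size among the 3898 higher genes. ULBP2 was 3.18-fold higher per the authors' deposited table (log2 1.67, q = 6.03e-49). RAET1E, also known as ULBP4, was 2.22-fold higher (log2 1.15) and RAET1G, also known as ULBP5, 1.84-fold higher (log2 0.88) per the authors' deposited table, with q-values of 3.59e-06 and 0.00451. ULBP1 and ULBP3 had the smallest rises of the group, with log2 fold changes of 0.42 (q = 3.34e-04) and 0.39 (q = 3.18e-08) per the authors' deposited table. Thus genes that stand side by side spanned a range of 0.39 to 3.11 on the log2 scale. These 6 genes lie between 149883179 and 150069121 on chromosome 6 and were the only listed genes in that stretch. Of the 6 other listed genes starting within 500 kb of ULBP2, 5 were higher and 1 was lower.

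MICA and MICB, the NKG2D ligands inside the MHC, were 1.84-fold (log2 0.88, q = 6.38e-28) and 2.19-fold (log2 1.13, q = 5.12e-71) higher per the authors' deposited table. Both human genes are known to respond to heat shock. A stretch of 60 bases of each promoter is shown, chosen after their values were seen. Each holds the letters GAANNTTC (capitals), searched here as a short form of the heat shock element, at nearly the same place. Whether these letters act in a heat response was not tested. The match starts 135 bases before the promoter start used here for MICA and 139 before that for MICB. Both of these starts lie inside the annotated genes, which begin at 31400711 (MICA) and 31494918 (MICB).
MICA, chr6:31403435-31403494, plus strand: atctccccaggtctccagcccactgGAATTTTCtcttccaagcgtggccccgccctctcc
MICB, chr6:31497981-31498040, plus strand: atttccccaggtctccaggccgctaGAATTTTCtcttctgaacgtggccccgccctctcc
This match stood in 7.05% of all genes in the table and in 4 of the 23, the others being CANX and HLA-DQB1, and HLA-DQB1 was lower. It was not found in the windows of RAET1L and ULBP2, the ligand genes with the largest rises.

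CD274 encodes PD-L1, the ligand through which tumour cells engage the inhibitory receptor PD-1. It was 3.37-fold higher per the authors' deposited table (log2 1.75, q = 3.38e-10), rank 185 by size among the higher genes. PDCD1LG2, which encodes PD-L2 and lies near CD274 on chromosome 9, was in neither table. Of the 3 other listed genes starting within 500 kb of CD274, 2 were higher and 1 was lower. JAK2, which lies near CD274 too, had a log2 fold change of 0.46 (q = 0.00483) per the authors' deposited table. JAK2 is named for its position and was picked once its value was known. The CD274 promoter holds a run of overlapping IRF elements (capitals, opposite strand), as B2M and TAP1 do, between 208 and 193 bases before its start. It is shown for comparison with those genes and was picked once its value was known.
CD274, chr9:5450322-5450381, plus strand: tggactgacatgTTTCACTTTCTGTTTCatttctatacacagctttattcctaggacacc

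Of 15 other ligands that restrain or stimulate lymphocytes, 8 were listed, 6 higher and 2 lower. TNFSF9 (4-1BB ligand), CD58, the ligand of CD2, and PVR (CD155) had log2 fold changes of 1.36, 1.12 and 0.47 per the authors' deposited table. Their q-values were 1.15e-69, 2.31e-27 and 1.24e-20. The lower genes were VTCN1 (B7-H4) at -3.37 (q = 3.66e-05) and LGALS9 at -0.73 (q = 0.00375) per the authors' deposited table and were picked once their values were known. Of 10 class I-like proteins that are no NKG2D ligands, PROCR alone was listed, with a log2 fold change of 0.87 per the authors' deposited table. A list drawn up for class I down-modulation held 8 genes, and whether each of them acts on class I was not checked. Of these 8 genes, 4 were listed, 2 higher and 2 lower. MARCH2 and SYVN1 were higher at 0.77 and 0.43, and TMEM129 lower at -0.35, per the authors' deposited table. MARCH9, named to complete the listed genes, was lower at -0.22 (q = 0.0281) per the authors' deposited table. Over all 9 of these further lists, which hold 87 genes, 45 were listed, against 37.9% of coding genes, and 36 of the 45 were higher and 9 lower, against 50.7% of listed genes higher. These lists too were written with earlier results known.

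**Figure D3:**
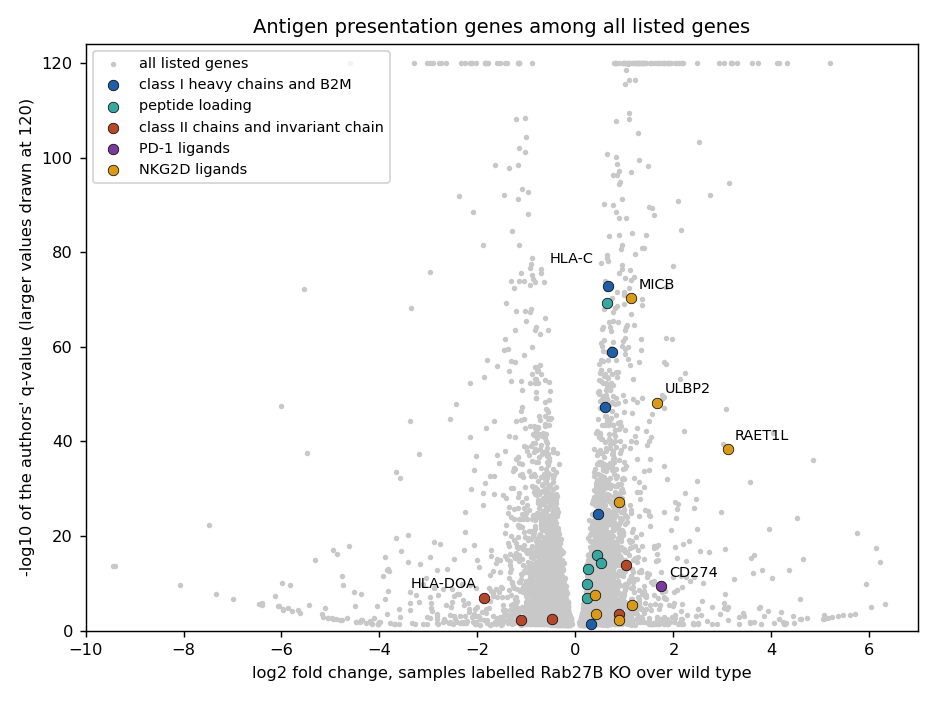
Each point is a listed gene, 25 of the 26 in colour, placed by the authors' log2 fold change (samples labelled Rab27B KO over wild type) and the -log10 of the q-value, with q-values beyond the axis drawn at its top. HLA-B, HLA-C, B2M and CALR combine modest folds with small q-values, whereas RAET1L, ULBP2 and CD274 have larger folds.

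Other genes of the MHC region were split. Between the start of HLA-F and the end of TAPBP (29723434 to 33314078 on chromosome 6), 14 of the 26 genes were listed, 12 higher and 2 lower, with a median log2 fold change of 0.53. The 56 other listed genes of the same stretch were split into 27 higher and 29 lower, with a median of -0.15. On the rest of chromosome 6, 54.9% of 304 listed genes were higher. The complement genes CFB and C4A, which lie between the class I and class II clusters, had log2 fold changes of 4.84 and -5.79 per the authors' deposited table and were picked once their values were known. HLA-C, HLA-B, MICA and MICB follow each other as 4 higher genes with no other listed gene between them.

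**Figure D4:**
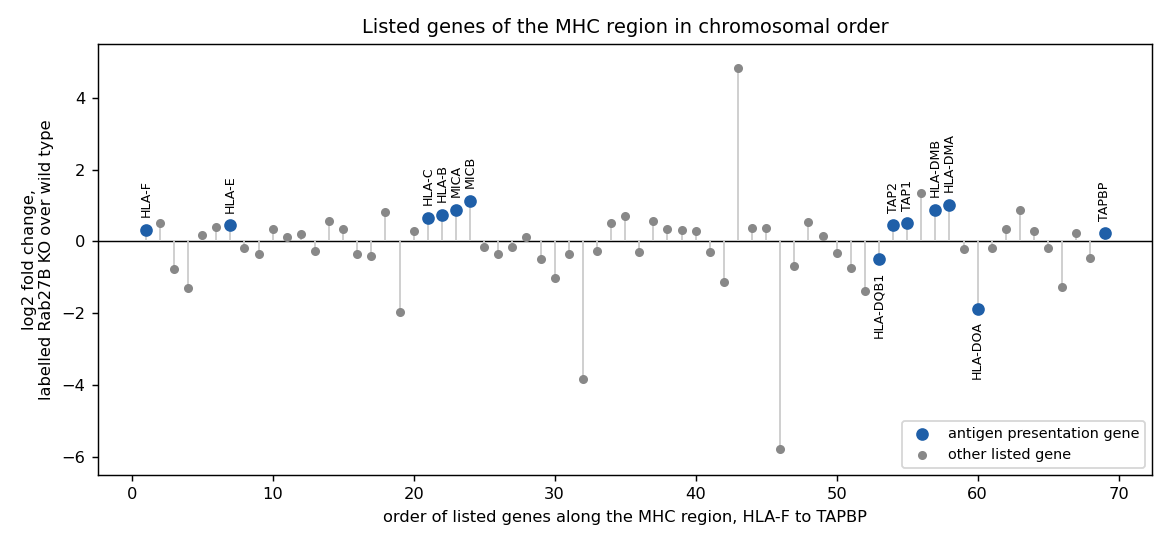
Listed genes between HLA-F and TAPBP are placed in chromosomal order with the authors' log2 fold change, samples labelled Rab27B KO over wild type. The 13 antigen presentation genes drawn are above 0 except HLA-DQB1 and HLA-DOA, and the genes between them lie on both sides of 0.

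Several of these genes share sequence with relatives, so their counts may have been split or pooled. Each gene's longest protein-coding GENCODE transcript was cut into windows of 100 bases, and 13 of the 26 genes had a window that also occurs in a transcript of another gene model. ULBP2 and RAET1L shared most with each other, with 11.9% and 12.4% of their windows found elsewhere. For HLA-C 0.275% of windows were shared, and for HLA-B none. RAET1E, TAP2 and HLA-DMB had 41.1%, 35.2% and 26.3% of windows in overlapping or other gene models. MICA, MICB, B2M, CD274, CD74, HLA-DOA and TAP1 had none. HLA genes are highly polymorphic, and these windows do not measure how far the alleles of HCT116 differ from the reference. Of the annotated genes that overlap one of the 26 in position, RGL2 alone was listed. It overlaps TAPBP and had a log2 fold change of -0.47 per the authors' deposited table, opposite in sign to TAPBP.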

How the data were processed

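RNA was sequenced from 6 HCT116 cultures, 3 labelled Rab27B KO and 3 labelled wild type, which the submitters call biological replicates. The submitters' processing notes name HISAT, Bowtie2 and the build GRCh38. The sources used here do not give the counting, annotation, strand, scaling or test. Per the file headers, the authors deposited for each gene a log2 fold change, Rab27B KO over wild type, and a q-value from their own test. The deposited table of higher genes also holds the linear ratio, which matches the log2 column to a relative difference of 4.53e-10. For lower genes the fold was computed from the log2 value. All q-values lie below 0.05 (the largest is 0.0499963), so genes that did not pass are not analysed here, and long or abundant transcripts are more easily listed. The foreseen tests on values per sample could not be run, and no test was added.

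Genes were taken by symbol as printed, and groups and further lists were described by counts and medians. Of the listed genes of the rule, 1 is counted but not reported here by name, value or point in a figure; the others were named, with up to 3 genes per further list by smallest q-value, except where said. The members and lists were chosen with earlier results of these data known. Gene IDs were matched to RefSeq genes of GRCh38.p14 (7656 of 7681 matched), whose coordinates are 1-based. Motifs were searched in 250 bases before each RefSeq start, and shared windows in GENCODE release 29 transcripts. Counting was tested on simulated data. Alternatives were a stricter q-value (0.01), a minimum absolute log2 change of 1, leaving out the HLA genes or 3 chaperone genes, and RefSeq names. Python 3.11.15, pandas 2.3.3, numpy 2.4.6, Biopython 1.88 and matplotlib 3.10.9 were used.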

Additional observations from a re-analysis of the deposited data

How the results depend on the processing

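The count of 23 higher and 3 lower genes was the same with RefSeq names, and became 22 and 3 at a q-value below 0.01, where HLA-F left the list. At an absolute log2 fold change of at least 1, 6 genes were higher and 2 lower, with a median of 1.14, by construction of that limit; 48.5% of all listed genes of that size were higher. Without the HLA genes, 16 genes were higher and 1 lower. Without CALR, CANX and PDIA3, 20 were higher and 3 lower. The share of higher genes ranged from 75.0 to 94.1% over these 5 alternatives, and the median stayed above 0. No paired analysis was possible because the tables hold no values per sample. For the same reason, leaving out a culture, other scalings and other filters were not run. Depth is unknown, so the precision of each fold change cannot be given, and a gene in neither table cannot be called unchanged.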
